A study of Homo sapiens with 6 samples.

Results

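The genes described here are 10 components of insulin and insulin-like growth factor (IGF) signalling, measured in 293T cells that had received a duplex of the microRNA miR-941 or a scrambled oligonucleotide. They are listed as a pathway linked to miR-941: the ligand gene IGF2, the receptor genes IGF1R, INSR and IGF2R, the adaptor genes IRS1, IRS2 and GRB2, the kinase genes RPS6KB1 and RPS6KB2, and the glycogen synthase gene GYS1. No measured value is part of that rule, but the genes were picked with results of these libraries already known. They are 10 of 26613 genes with at least 1 count, and all 10 passed the filter on low counts. Another 100 genes of the same pathway, listed by role, are given after them.

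293T is a readily transfected line derived from human embryonic kidney cells. The mimic group is 3 libraries from cells given the miR-941 duplex at a final 10 nM in complexes with a lipid carrier. The mock group is 3 libraries from cells given a scrambled oligonucleotide whose concentration is not stated, so that dose and sequence cannot be told apart. All 6 cultures came from 1 cell line, were plated 24 h before transfection and went through transfection, and no untransfected cells were included. The labels describe 3 independent transfections a group, and when RNA was taken after transfection is not stated in the labels. Libraries were made from RNA without its ribosomal part, with single reads of 100 bases.

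Insulin, IGF1 and IGF2 act through the receptor tyrosine kinases INSR and IGF1R, which phosphorylate docking proteins of the IRS family. These recruit phosphoinositide 3-kinase, which activates AKT and the TOR complex 1 with its S6 kinases, and GRB2, which connects receptors through SOS to Ras and the MAP kinases. IGF2R has no kinase: it binds IGF2 and mannose 6-phosphate groups and carries them to lysosomes. A microRNA mimic loads a strand into Argonaute, and mRNAs whose 3′ UTR pairs with its seed, bases 2 to 8, tend to be lowered.

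The mature miR-941 strand, from the RefSeq sequences on GRCh38.p14, is the same at 5 loci between 63919495 and 63919936 on chromosome 20, plus strand. It is printed 5′ to 3′ with the seed in capitals, because the sites that follow were searched from it.
hsa-miR-941: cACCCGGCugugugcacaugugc

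The complement of the seed, GCCGGGT, was found in the 3′ UTR of 2 of the 10 genes, GRB2 and RPS6KB2. The 3 matches are printed on the sense strand with the matched bases in capitals. Both genes were also lower in the mimic group, and whether the matches have a part in that was not tested. Coordinates are those of GENCODE release 29 on GRCh38.
GRB2, chr17:75320251-75320257, minus strand: cagaacacctgGCCGGGTcaccctgtgac
GRB2, chr17:75319600-75319606, minus strand: ataagaaattaGCCGGGTgtggcacgcac
RPS6KB2, chr11:67435173-67435179, plus strand: ggcgctaggaaGCCGGGTgggggtgaggg

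Both GRB2 matches lie in the last exon, starting 111 and 762 bases past the stop codon in a 3′ UTR of 2292 bases, and all 3 principal transcripts of the gene hold a match. The RPS6KB2 match begins at base 4 past the stop codon in the 239-base 3′ UTR of its principal transcript, in exon 15 of 15, so the printed stretch starts in the coding sequence. In a second RPS6KB2 transcript, which stops earlier in the gene, the same bases lie 1128 bases into a 3′ UTR of 1299 bases. None of the 3 matches is followed by an A, so no 8mer site (GCCGGGTA) was present. The 17 bases around the second GRB2 match, aattaGCCGGGTgtggc, occurred in 2 genes among the 791 GCCGGGT matches in the longest 3′ UTRs of all tested genes, and the 17 bases around each of the other matches in 1 gene. Only exact copies of the 17 bases were counted, so similar stretches that differ at any base are not in these numbers. Whether a match lies in a repeat element was not examined, so these counts do not show that a stretch is unique.

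The other 8 genes held no GCCGGGT in any annotated 3′ UTR. The longest 3′ UTRs of IGF1R, INSR, IGF2R and IRS2 each held 1 match to bases 2 to 7 only (CCGGGT), while IGF2, IRS1, RPS6KB1 and GYS1 held none of the forms searched. Upstream of the 3′ UTR, IGF2R held 1 GCCGGGT and IRS2 held 3. Of 13108 tested genes with a 3′ UTR, 5.39% held at least 1 GCCGGGT in the longest one and 0.557% at least 2. Among genes with a longest 3′ UTR of like length the share was 5.18% for GRB2 and 3.58% for RPS6KB2. The RPS6KB2 share refers to the 3′ UTR of 1299 bases, and none was computed for the 239 bases of its principal transcript. A match is a description of sequence, and binding was not measured.

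**Figure D1:**
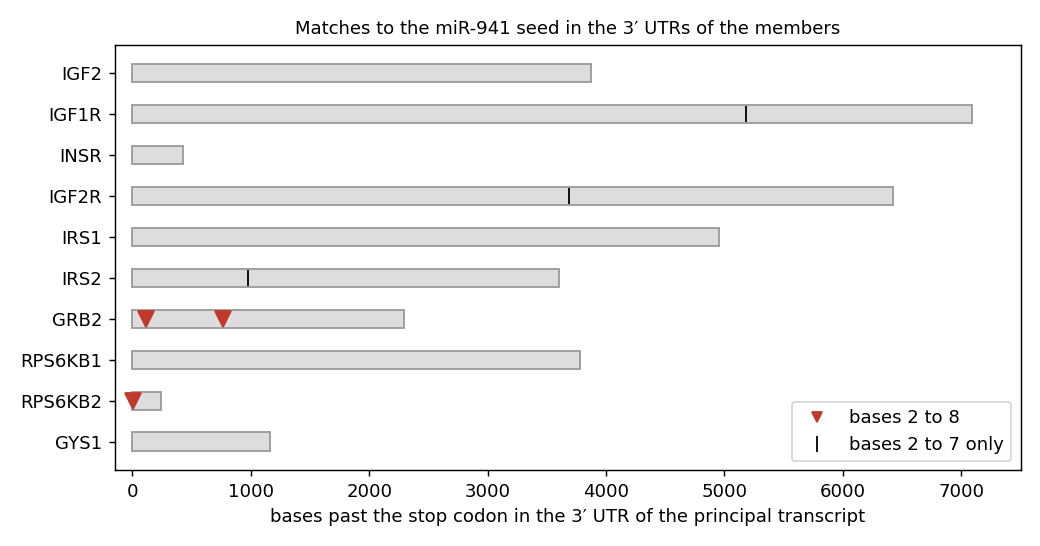
Each bar is the 3′ UTR of the principal transcript of 1 gene, drawn to scale in bases past the stop codon. Triangles mark matches to miR-941 bases 2 to 8, of which GRB2 has 2 and RPS6KB2 has 1, and ticks mark matches to bases 2 to 7 only, in IGF1R, IGF2R and IRS2.

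The tables hold 6079420 to 7651046 counts per library; levels are given as CPM, counts scaled by the library total and its TMM factor. Of the marker genes of the line, IRS4 lay at 801 to 880 CPM, VIM at 942 to 1069 and PAX2 at 5.97 to 10.9, and LHX1 and NEFL were in no table. NEFM, a neurofilament gene among these markers, lay at 83.1, 78.5 and 83.9 CPM in the mimic and 54.1, 58.3 and 55.2 CPM in the mock libraries, without overlap (log2 fold change 0.55 ± 0.07, adjusted p = 9.13e-10 by edgeR), and what part this has in the results was not tested. The 4 listed markers summed to 1911 to 2009 CPM in the mimic and 1846 to 1924 CPM in the mock group. Of the fibroblast markers COL1A1 was present at 35.4 to 41.1 CPM and LUM at 1.73 to 3.06 CPM. COL1A2 reached 0.164 and COL3A1 0.417 CPM, and DCN was in no table. The fibroblast markers summed to at most 43.0 CPM, the blood markers to at most 2.98 CPM and the liver markers to at most 0.838 CPM. In bulk RNA, a change in the number of cells that express a gene and a change in RNA per cell cannot be told apart.

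The comparison asked how the 10 genes differed between the mimic and mock groups. IGF2 and GYS1 were higher and GRB2, RPS6KB2 and IGF2R lower in the mimic group, while IGF1R, INSR, IRS1, IRS2 and RPS6KB1 did not pass the test. Calls are from edgeR's quasi-likelihood test over all 15607 tested genes, at an adjusted p under 0.05 (Benjamini-Hochberg). So 2 of 10 rose, where 6.80% of all tested genes rose, and 3 of 10 fell, where 6.19% fell; either way 5 of 10 were called, against 13.0% of all genes. In 6 of the 10 genes the CPM of the groups did not overlap, against 28.3% of all tested genes. In absolute size the log2 fold changes of the 10 had a median of 0.22, against 0.12 over all tested genes. The genes were picked with results of these libraries already known, so these shares describe the 10 genes and do not test them as a set.

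**Figure D2:**
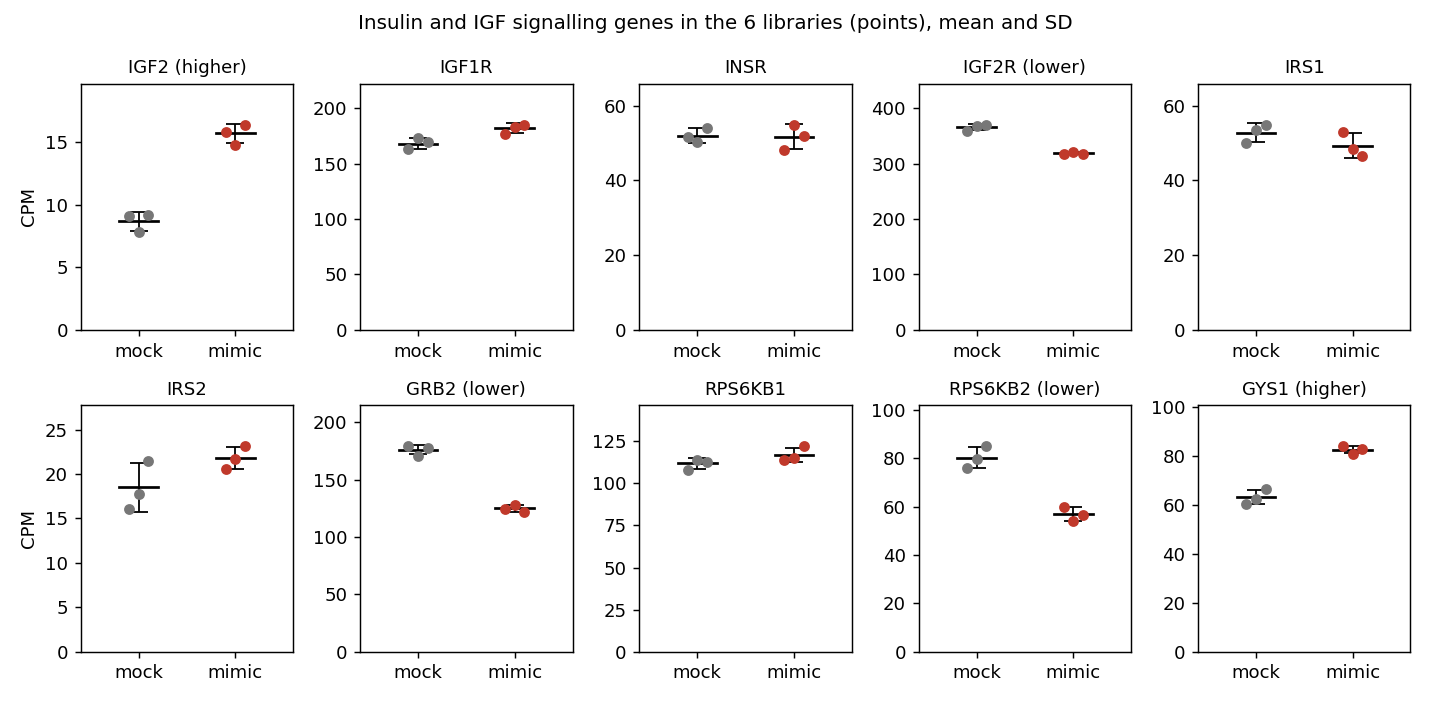
CPM of the 10 genes in each library (points), with the mean and SD of 3 libraries a group; each vertical axis starts at 0 and has its own scale. IGF2 and GYS1 lie higher and IGF2R, GRB2 and RPS6KB2 lower in the mimic group with no overlap, and IGF1R also does not overlap but was not called.

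The ligand gene IGF2 encodes a growth factor that is best known for its part in fetal growth. It was counted at 15.8, 14.8 and 16.4 CPM in the mimic libraries and at 9.09, 7.79 and 9.18 CPM in the mock libraries. All mimic libraries lay above all mock libraries. IGF2 rose 1.80-fold (log2 fold change 0.85 ± 0.14, SE; adjusted p = 3.53e-06 by edgeR). This was the largest change among the 10, at the lowest level: the raw counts were 120, 106 and 104 against 67, 56 and 56.

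IGF2 shares 1460 exon bases, 20.9% of its exon length, with INS-IGF2 on the same strand, a readthrough gene that joins the insulin and IGF2 loci. INS-IGF2 was counted at 2.12 ± 0.243 CPM (SD, n = 3) in the mimic and 1.44 ± 0.165 CPM in the mock group, and its log2 fold change of 0.55 ± 0.34 did not pass (adjusted p = 0.328 by edgeR). Another same-strand gene with shared exons, ENSG00000240801, was counted at 6.14% of the level of IGF2. How the counting treated reads from shared exons is not stated, and their part in the IGF2 result was not tested. The antisense gene IGF2-AS had 1 count in all 6 libraries together.

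Of the receptor genes, IGF2R fell and the receptor kinase genes did not pass. IGF2R, the scavenging receptor for IGF2, was counted at 318, 321 and 317 CPM after the mimic and at 359, 368 and 370 CPM in the mock group. The groups did not overlap, and IGF2R fell by 12.8% (95% interval of the change −18.1% to −7.16%), at a log2 fold change of −0.20 ± 0.05 (adjusted p = 0.00113 by edgeR). It was the smallest called change of the 10, measured from at least 2011 counts a library.

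IGF1R, the receptor kinase for IGF1 and IGF2, was counted at 177, 183 and 185 CPM in the mimic libraries and 163, 173 and 169 CPM in the mock libraries. All mimic libraries lay above all mock libraries, but the log2 fold change of 0.11 ± 0.05 did not pass (adjusted p = 0.138 by edgeR). INSR, the insulin receptor, lay at 48.1, 54.9 and 51.9 CPM against 51.7, 50.2 and 54.1 CPM, with the groups interleaved. Its log2 fold change was −0.01 ± 0.07 (adjusted p = 0.965 by edgeR), and the 95% interval of the change runs from −10.1% to 9.96%.

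Of the adaptor genes, GRB2 was lower in the mimic group. GRB2, the SH2 and SH3 adaptor that brings SOS to activated receptors, was counted at 124, 128 and 122 CPM after the mimic and at 179, 171 and 178 CPM in the mock group. The lowest mock library lay well above the highest mimic library. GRB2 fell by 29% (log2 fold change −0.49 ± 0.05, adjusted p = 9.84e-12 by edgeR), the smallest p of the 10 genes, and its 3′ UTR holds both GCCGGGT matches printed above.

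The docking protein genes did not pass. IRS1, the main insulin receptor substrate of many tissues, lay at 53.0, 48.3 and 46.6 CPM against 50.0, 53.4 and 54.9 CPM, with overlapping groups and a log2 fold change of −0.09 ± 0.07 (adjusted p = 0.472 by edgeR). IRS2, its close relative, lay at 20.6, 21.7 and 23.1 CPM against 16.1, 17.8 and 21.5 CPM. The highest mock library of IRS2 reached into the mimic range, and its log2 fold change of 0.25 ± 0.11 did not pass (adjusted p = 0.146 by edgeR). The 95% interval of the IRS2 change runs from 1.61% to 38.4%, wider than for the more abundant genes.

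The S6 kinases act below TOR complex 1 and phosphorylate ribosomal protein S6. RPS6KB2, which encodes S6 kinase 2, was counted at 59.9, 54.2 and 56.7 CPM after the mimic and at 76.1, 79.9 and 84.9 CPM in the mock group. The groups did not overlap, and RPS6KB2 fell by 28.9% (log2 fold change −0.49 ± 0.07, adjusted p = 3.34e-08 by edgeR). RPS6KB1, which encodes S6 kinase 1, lay at 114, 115 and 122 CPM against 108, 114 and 113 CPM. Its groups overlapped, and the log2 fold change of 0.06 ± 0.06 did not pass (adjusted p = 0.561 by edgeR, 95% interval −3.55% to 12.4%).

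Ratios between related genes were compared within each library. The ratio of RPS6KB2 to RPS6KB1, each as CPM per kilobase of exon, was 0.695, 0.623 and 0.616 in the mimic and 0.928, 0.922 and 0.988 in the mock libraries. The ranges did not overlap, with a log2 difference of −0.56, but the exact two-sided permutation p of 0.1 is the smallest that 3 against 3 libraries allow and does not pass. For IRS2 against IRS1 the ratios were 0.475, 0.548 and 0.607 against 0.394, 0.408 and 0.478, which overlap (log2 difference 0.35, exact permutation p = 0.2). For INSR against IGF1R they were 0.364, 0.399 and 0.375 against 0.423, 0.388 and 0.428, again overlapping (−0.12, exact permutation p = 0.2). These 3 pairs were chosen after their values were seen, and adjusted over them each exact permutation p is 0.2. The size of each ratio depends on the exon lengths used, which cancel in the log2 difference between the groups.

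GYS1 encodes the muscle-type glycogen synthase, which insulin activates by way of AKT and the inhibition of GSK3. It was counted at 83.9, 80.9 and 83.0 CPM in the mimic libraries and at 60.5, 62.6 and 66.4 CPM in the mock libraries. The groups did not overlap, and GYS1 rose 1.31-fold (log2 fold change 0.39 ± 0.06, adjusted p = 4.03e-06 by edgeR). Its exons overlap those of no other counted gene in GENCODE release 29, which holds also for GRB2, RPS6KB2 and IGF2R.

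**Figure D3:**
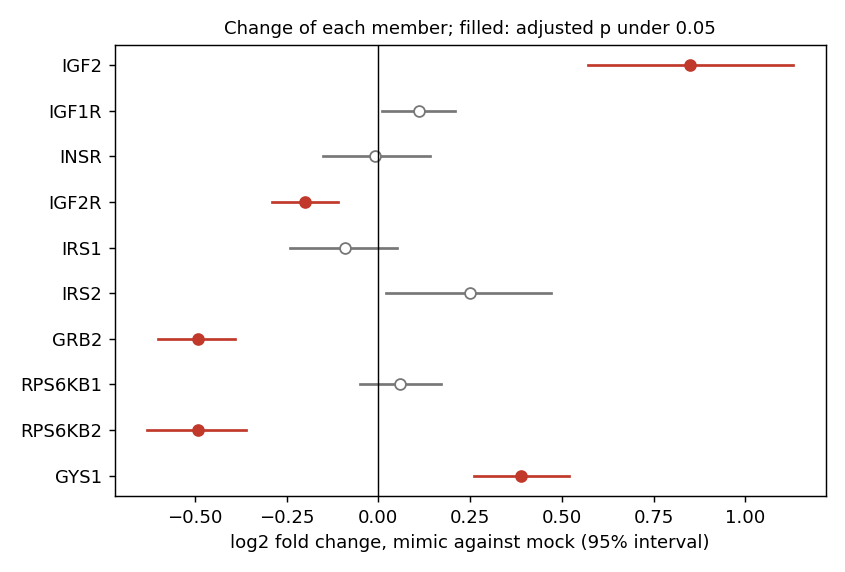
Log2 fold change of each gene, mimic against mock, with its 95% interval from edgeR's quasi-likelihood fit. The intervals of IGF2 and GYS1 lie above 0 and those of IGF2R, GRB2 and RPS6KB2 below it with an adjusted p under 0.05 (filled points), while the open points of IGF1R and IRS2 have intervals that exclude 0 before adjustment only.

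Across genes, levels were compared as CPM per kilobase of exon. In the mock group GRB2 stood highest at 37.3 ± 0.847 (SD, n = 3), followed by IGF2R at 20.5 ± 0.333, GYS1 at 14.9 ± 0.705, RPS6KB1 at 14.6 ± 0.433, RPS6KB2 at 13.8 ± 0.760 and IGF1R at 12.1 ± 0.348. IRS1 at 5.30 ± 0.250, INSR at 4.97 ± 0.189, IRS2 at 2.27 ± 0.336 and IGF2 at 1.24 ± 0.112 followed. Neighbours whose ranges overlapped in the mock group were GYS1 and RPS6KB1, RPS6KB1 and RPS6KB2, and IRS1 and INSR.

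In the mimic group the order at the top was GRB2 at 26.5 ± 0.636 CPM per kilobase, GYS1 at 19.4 ± 0.360 and IGF2R at 17.9 ± 0.135, with no overlap between these neighbours. GYS1 thus passed IGF2R, and RPS6KB2, at 9.78 ± 0.488, moved below IGF1R, at 13.0 ± 0.320. IGF2 stayed lowest at 2.24 ± 0.114, below IRS2 at 2.68 ± 0.158, without overlap. With the length of the longest transcript in place of all exons, IGF2 (2.81 ± 0.142) overlapped IRS2 in the mimic group and no longer ranked lowest there, and GYS1 and IGF2R also overlapped. In the mock group that length put RPS6KB1 (20.4 ± 0.607) above GYS1 (17.7 ± 0.837) without overlap, and INSR above IRS1 with overlap. RPS6KB2 (13.8 to 15.4) and IGF1R (13.3 to 14.1) then overlapped in the mock group, so their change of order there depends on the length used. Both lengths draw on all annotated transcripts of a gene. For RPS6KB2 they were 5822 and 5528 bases, though the 3′ UTR of its principal transcript has 239 bases. Levels by the length of the principal transcript were not computed, and a shorter length would give RPS6KB2 a higher level. Its place among the 10 thus holds for these lengths only.

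**Figure D4:**
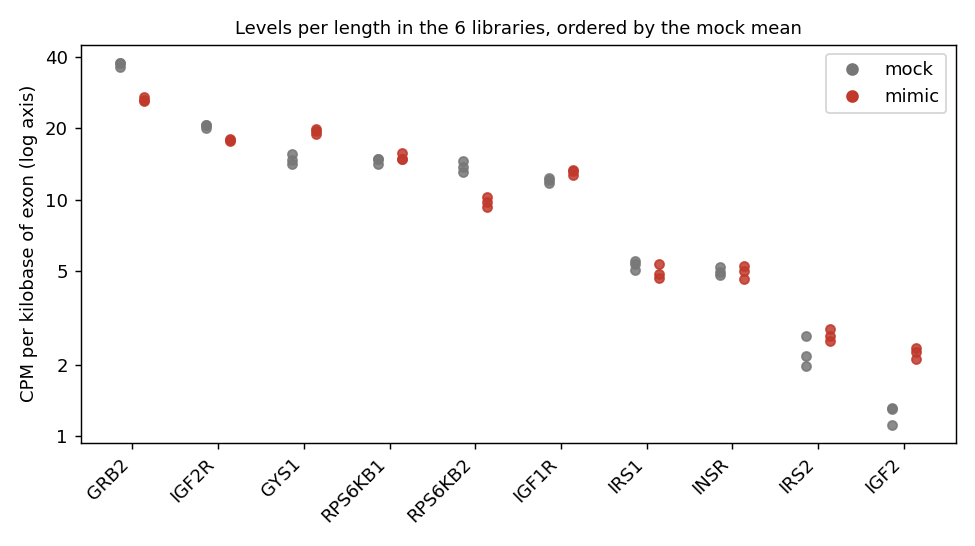
CPM per kilobase of exon (log axis) of the 10 genes in each library, ordered by the mock mean. GRB2 is highest in every library. The mimic points of GYS1 lie above those of IGF2R and the mimic points of RPS6KB2 below those of IGF1R, the reverse of the mock group. These orders are for the length of all annotated exons, and the length of the principal transcript was not used.

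Of the other 100 pathway genes, 92 were tested, and 9 rose and 7 fell. Together 17.4% of them were called, near the 13.0% of all tested genes, and their median log2 fold change was 0.00, as for all tested genes. The counts by role that follow rest on few genes each and only describe those genes. IGF1 had 2 counts in 1 library, and INS was in no table. Only SH2B1, IGFBP5, PHLPP2 and AKT1S1 of the 16 called genes held their call under all 13 other settings tried; the number called was 4 with DESeq2, and 9, 9, 9 and 6 without mimic replicate 2, mock replicate 1, mock replicate 2 and mock replicate 3.

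Among the regulators of free ligand, 2 of 8 tested genes rose and none fell (25.0% called, against 13.0% of all tested genes). IGFBP5, an IGF-binding protein, was counted at 77.4, 77.8 and 85.9 CPM after the mimic and at 58.3, 61.3 and 59.2 CPM in the mock group, with no overlap and a log2 fold change of 0.43 ± 0.07 (adjusted p = 8.35e-07 by edgeR). IGFBP4, another binding protein, rose from 2.66 ± 0.176 to 4.47 ± 0.745 CPM (adjusted p = 0.0314 by edgeR), a call lost when any library other than mimic replicate 3 was left out. The IGF2 mRNA-binding proteins did not pass: IGF2BP1, the most abundant, lay at 320 ± 21.6 CPM against 319 ± 10.4 CPM. H19, the imprinted neighbour of IGF2, had at most 4 counts in a library and was not tested.

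Of 9 other tested adaptors, 1 rose and 1 fell (22.2% called, against 13.0% of all tested genes). SH2B1, which binds activated insulin and IGF1 receptors and enhances their signal, was counted at 74.2, 65.8 and 68.2 CPM against 57.9, 51.4 and 52.5 CPM in the mock group, without overlap (log2 fold change 0.36 ± 0.07, adjusted p = 7.93e-05 by edgeR). SHC1, an adaptor that binds GRB2, fell from 53.1 ± 0.732 to 45.6 ± 2.32 CPM (adjusted p = 0.036 by edgeR, up to 0.151 under other settings). Its exons overlap those of PYGO2, counted at 114% of its level. IRS4, the docking protein abundant in this line, lay at 840 ± 35.4 CPM after the mimic and 832 ± 26.9 CPM in the mock group (log2 fold change 0.01 ± 0.04, adjusted p = 0.89 by edgeR). None of 9 tested inhibitors of the receptors was called, against 13.0% of all tested genes. CBL, a ubiquitin ligase, lay at 100 ± 1.88 CPM after the mimic and 97.8 ± 6.33 CPM in the mock group.

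In the Ras and MAP kinase branch 2 of 13 genes fell and none rose (15.4% called, near the 13.0% of all tested genes). SOS2, a Ras exchange factor that GRB2 recruits, fell from 38.2 ± 1.42 to 30.7 ± 1.07 CPM (log2 fold change −0.32 ± 0.08, adjusted p = 0.00649 by edgeR, and 0.0522 with DESeq2). NRAS, a Ras GTPase, fell from 121 ± 1.07 to 109 ± 2.33 CPM (adjusted p = 0.0478 by edgeR), a call lost under 9 of 13 other settings. SOS1 had a log2 fold change of 0.01.

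In the PI3K and AKT branch 1 of 14 genes rose and 1 fell (14.3% called, near the 13.0% of all tested genes). PHLPP2, a phosphatase that dephosphorylates AKT, was counted at 64.7, 65.2 and 67.7 CPM against 86.4, 80.9 and 81.0 CPM, without overlap (log2 fold change −0.33 ± 0.06, adjusted p = 7.69e-05 by edgeR). INPPL1, a lipid phosphatase, rose from 206 ± 5.12 to 227 ± 4.80 CPM (adjusted p = 0.0439 by edgeR), also lost under 9 of 13 settings. The exons of PHLPP2 overlap those of MARVELD3 on the opposite strand, which was counted at 24.6% of its level.

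Among 17 genes of the TOR complexes and their substrates 4 rose and 1 fell (29.4% called, against 13.0% of all tested genes). AKT1S1, which encodes the TOR complex 1 inhibitor PRAS40, was counted at 126, 131 and 150 CPM against 107, 105 and 114 CPM, without overlap (log2 fold change 0.31 ± 0.06, adjusted p = 4.31e-05 by edgeR). EIF4EBP1, a repressor of cap-dependent translation, rose from 38.4 ± 0.390 to 45.8 ± 2.79 CPM (adjusted p = 0.0185 by edgeR), while its paralog EIF4EBP2 fell from 192 ± 2.93 to 171 ± 11.6 CPM (0.0164). The translation factor EIF4B rose from 229 ± 12.2 to 257 ± 8.37 CPM (0.0137) and MLST8, a subunit of both TOR complexes, from 117 ± 4.76 to 131 ± 7.33 CPM (0.0314). The calls of these last 4 genes were lost under 4 to 6 of 13 settings. TBC1D17, whose exons overlap those of AKT1S1 on the other strand, had 30.9% of its CPM.

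Of 13 tested glycogen genes 1 rose and 2 fell besides GYS1 (23.1% called, against 13.0% of all tested genes). GSK3B, a kinase that inhibits glycogen synthase, rose from 63.1 ± 1.89 to 74.9 ± 5.16 CPM (adjusted p = 0.00721 by edgeR). PPP1R3D, which brings protein phosphatase 1 to glycogen, fell from 14.1 ± 1.34 to 10.1 ± 0.739 CPM (0.0125), and PPP1CA, a catalytic subunit of that phosphatase, from 174 ± 8.13 to 157 ± 5.62 CPM (0.0375). With DESeq2 these 3 adjusted p were 0.0569, 0.0829 and 0.129. FAM217B, on the opposite strand and overlapping PPP1R3D, was counted at 306% of its level. None of 6 nuclear effectors passed, against 13.0% of all tested genes. FOXO3, a forkhead factor that AKT inhibits, lay at 90.7 ± 3.73 CPM after the mimic and 88.7 ± 2.51 CPM in the mock group.

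**Figure D5:**
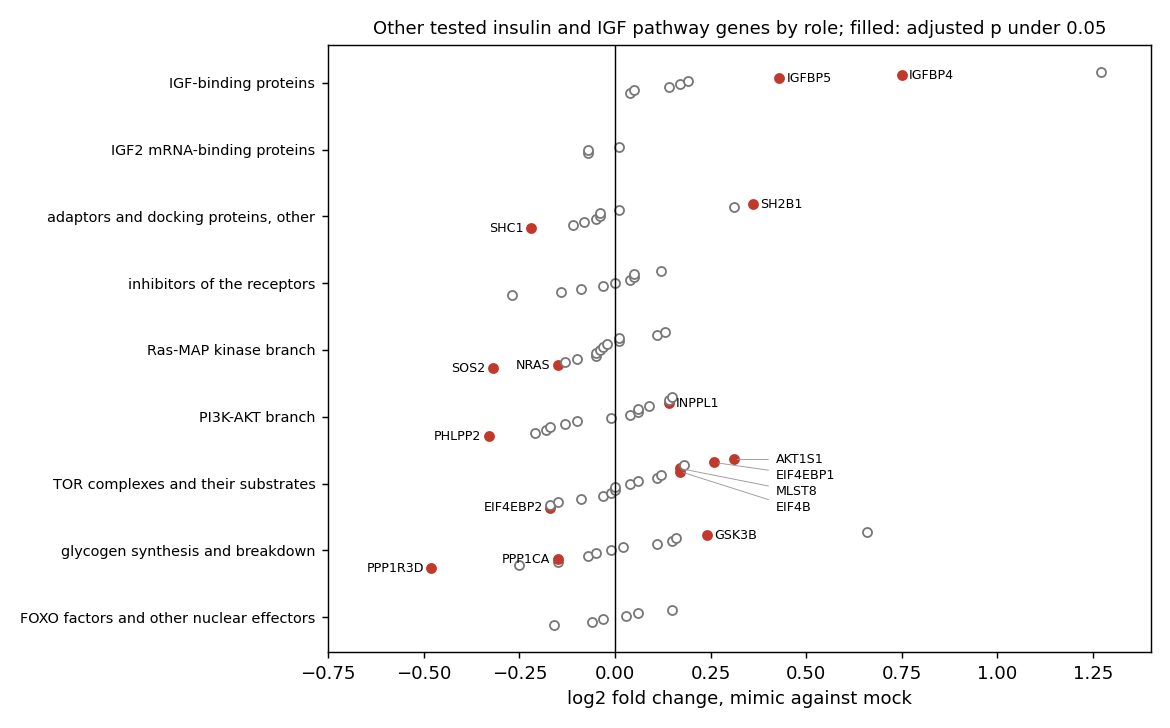
Log2 fold changes, mimic against mock, of the 92 tested genes outside the 10, grouped by role, with filled and named points for an adjusted p under 0.05. The 16 called genes lie between −0.48 (PPP1R3D) and 0.75 (IGFBP4), 9 above and 7 below 0.

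A GCCGGGT match in the longest 3′ UTR was present in 4 of the 92 tested pathway genes, or 4.35%, near the 5.39% of all tested genes. None of these 4 was called, against 13.0% of all tested genes. GAB1 had a log2 fold change of −0.08, GRB10 of 0.05, PTPN2 of 0.12 and RPTOR of −0.09. None of the 16 called pathway genes held the match, where 5.39% of all tested genes with a 3′ UTR held it. GRB2 and RPS6KB2 were called, and the other 4 genes with a match were not. The share called among all tested genes with a match was not computed, so these genes are a description only.

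For each of the 5 called genes of the 10, the tested genes with the most similar pattern over the 6 libraries were found by Pearson's r of log2 CPM, among genes of at least 5 CPM. With 6 libraries that fall into 2 groups, r mostly follows the group difference, and it is given as a description. IGF2 was closest to SCD (r = 0.9990) and ZNF267 (0.9983), and GRB2 to CLCN3 (0.9995) and HSPB8 (0.9983). IGF2R was closest to GPS1 (0.9984) and SOD2 (0.9981), RPS6KB2 to MAN1A2 (0.9976) and DR1 (0.9975), and GYS1 to RBL2 (0.9965) and FOXJ2 (0.9961). The log2 fold changes of these partners, in the same order, were 0.19, 0.89, −0.46, −1.20, −0.13, −0.45, −0.14, −0.27, 0.23 and 0.28. A high r thus did not mean a change of like size, and MAN1A2 was not called (adjusted p = 0.119 by edgeR). Between 7 and 33 genes had r over 0.99 with each.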

How the data were processed

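RNA-seq counts of 6 libraries of 293T cells were used, 3 a group by their titles. The deposited values are raw counts per Ensembl gene; STAR, edgeR and build hg19 are named in the submitters' processing notes. No source used here states the counting program, annotation or use of strand. Genes that a table does not list were set to 0 there. Counts were filtered with filterByExpr (15607 genes, 99.7% of counts), scaled with TMM factors (0.994 to 1.01) and tested with edgeR's quasi-likelihood test, group only, Benjamini-Hochberg adjustment over all tested genes, threshold 0.05. The software was edgeR 4.0.16, DESeq2 1.42.0 and limma 3.58.1 in R 4.3.3. The fit was tested on simulated counts with known changes. CPM use TMM-scaled totals, SDs are over 3 libraries, and intervals are 95%. Libraries of 1 group differed by 1.27 to 2.38 times the sampling noise, so none was treated as a library deposited more than once; that they are separate transfections rests on the labels.

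Symbols were found for 25236 of 26613 genes. Lengths, exon overlaps and 3′ UTRs came from GENCODE release 29 (GRCh38), another build than the authors'. The members and lists were chosen with earlier results of these data known. Named genes were the 10 members, the called pathway genes, the most abundant gene of each tested role group without a call, and the 2 genes closest to each called member; other genes named for a site or role were chosen after their values were seen.

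The alternatives tried were DESeq2, RLE and upper-quartile factors, no filter, a filter at a mean of 5 CPM, limma-voom, each library left out, and a replicate block. Same-numbered libraries did not deviate together, so the numbers were not taken as pairs. Not every overlap between genes is reported here.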

Additional observations from a re-analysis of the deposited data

How the results depend on the processing

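All 5 calls among the 10 genes, 2 higher and 3 lower, were made under each of the 13 alternatives, leaving out any 1 library (5 calls each time) and the replicate block included. Over these the log2 fold change ran from 0.78 to 0.89 for IGF2 (highest adjusted p 0.000207), from −0.21 to −0.19 for IGF2R (0.0129), from −0.52 to −0.48 for GRB2, from −0.53 to −0.45 for RPS6KB2 and from 0.36 to 0.42 for GYS1. The other 5 genes passed under none, and INSR changed sign without mimic replicate 1 (0.04) and without mock replicate 3 (0.02), within a leave-one-out range of −0.06 to 0.04. Signs near 0 also turned for IGF2BP1 without a filter (−0.0025) and without mimic replicate 3 (−0.05) or mock replicate 1 (−0.02), for CBL without mock replicate 1 (leave-one-out range −0.02 to 0.07) and for FOXO3 without mimic replicate 1 (−0.003 to 0.06). DESeq2 called 1015 genes in all and 4 of the other pathway genes. Leaving out 1 library gave 1302 to 2061 genes in all and 6 to 18 pathway genes; the causes were not tested. With the replicate block the counts were 1819 genes, 5 members and 13 pathway genes; same-numbered libraries correlated at −0.051 to 0.044, so the samples share only a number. A UTR of the principal transcript, an alternative chosen after seeing the data, left 2 members with a seed match. Counts were lowest among the 10 for IGF2 (56 to 120 a library), and lower still for IGFBP4 (16 to 36).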
